A study of Mus musculus with 6 samples.

Results

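The genes described here encode 3 superfamilies of enzymes that act on lipids, hormones and foreign compounds: the cytochromes P450, the aldehyde dehydrogenases and the glutathione transferases of the alpha, mu, pi, theta and omega classes. They were taken by symbol from the count tables. Every protein-coding gene was included whose symbol was Cyp and a digit (Cyp51 excepted), Aldh and a digit (Aldh1l2 excepted) or Gsta, Gstm, Gstp, Gstt or Gsto and a digit. This gave 139 of the 54109 listed genes, of which 99 were P450 genes, 20 aldehyde dehydrogenase genes and 20 glutathione transferase genes.

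Cytochromes P450 are haem enzymes that insert an oxygen atom into fatty acids, sterols, retinoids and drugs, with electrons passed on by a reductase. Aldehyde dehydrogenases oxidise reactive aldehydes to acids, among them retinaldehyde to retinoic acid and the aldehydes left by lipid peroxidation. Glutathione transferases couple glutathione to electrophiles, and many of their genes are known targets of the antioxidant factor NRF2. All 3 superfamilies are best known from liver. In nerve they are studied chiefly for retinoid signalling and for the disposal of lipid aldehydes.

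Msc80 is an established mouse line made of Schwann cells, which ensheathe peripheral axons, and messenger RNA from 6 of its cultures was sequenced. All were grown in DMEM with 10% FCS. In 3 cultures the Sox10 gene was intact (control), and in 3 CRISPR/Cas9 editing had inactivated Sox10, a transcription factor of glia and neural crest (Sox10ko). The source label of each Sox10ko culture reads as a cell clone. The labels speak of biological replicates and do not say whether the 3 stem from the same clone, so loss of Sox10 and a difference between clones cannot be told apart. The comparison asks which genes depend on Sox10 in this line.

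Depth was between 32328618 and 41834431 counted reads, and a single read stood for 0.0239 to 0.0309 CPM, the unit of level used here, in which TMM-adjusted library sizes make reads comparable between libraries. Where 3 values are listed for a group they follow replicates 1 to 3, errors after ± are SD with n = 3, and fold changes are log2 of Sox10ko over control ± SE. Sox10 RNA averaged 616 ± 10.5 CPM in control and 88.6 ± 25.1 CPM in Sox10ko, a log2 fold change of -2.80 ± 0.20 (edgeR adjusted p = 0.000186). The labels name a knockout of the gene and give no direction for its RNA. All 12 Schwann cell and glial markers had reads in control, with a summed level of 4784 to 5288 CPM against 110 to 171 CPM in Sox10ko. The largest part of that sum was Ngfr in control (2962 ± 272 CPM) and Sox10 itself, which is on the list, in Sox10ko. Mal did not pass the test, with 1.22 ± 0.271 CPM in control and 4.14 ± 6.30 CPM in Sox10ko. Summed fibroblast markers stood at 462 to 586 CPM in control and 1110 to 2314 CPM in Sox10ko. Most of that sum was Col1a1 (177 ± 59.2 and 1085 ± 601 CPM), Pdgfrb and Col3a1, of which Col3a1 did not pass the test, and 5 of the 9 markers were under 1 CPM in both groups. Smooth muscle markers stood at 31.0 to 56.2 CPM in control, mostly Smtn, and 156 to 730 CPM in Sox10ko, mostly Acta2. Acta2 went from 0.144 ± 0.0881 to 357 ± 270 CPM, while Smtn and Tagln did not pass the test. Epithelial markers stood at 0.195 to 0.256 CPM in control and 78.2 to 105 CPM in Sox10ko, there mostly Krt7. Of these 7 markers, 4 were under 1 CPM in both groups, Epcam and Cdh1 among them. Endothelial markers stood at 3.39 to 4.58 and 19.7 to 56.0 CPM, with Vwf higher and Cdh5 lower in Sox10ko, and leukocyte markers at 5.45 to 7.23 and 9.50 to 13.3 CPM. Most of the leukocyte sum was Cd68, higher in Sox10ko (2.37 ± 0.653 and 8.22 ± 2.75 CPM), and Csf1r, which did not pass (4.16 ± 1.59 and 3.07 ± 1.66 CPM). The part of these shifts in the results below was not tested, and in bulk RNA fewer cells of a type and less RNA per cell cannot be told apart. Of 7 hepatocyte markers, Alb, Ttr, Fgb and Hnf4a had no read in any library and the summed level reached at most 0.117 CPM.

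Glutathione transferase and aldehyde dehydrogenase genes that passed the test were nearly all higher in Sox10ko, whereas P450 genes went both ways by subfamily. Of the 139 members, 55 had enough reads to be tested, 84 did not, and 38 of those 84, all P450 genes, had no read in any library. Among the 55, edgeR's quasi-likelihood test called 29 higher and 9 lower in Sox10ko at an adjusted p under 0.05, and 17 did not pass. The called share was 69.1% of the tested members, beside 32.0% of all 15427 tested genes, of which 17.3% were higher and 14.7% lower. Their median log2 fold change was 0.70, and that of all tested genes was 0.02. The libraries of the 2 groups did not overlap for 42 of the 55, beside 49.3% of all tested genes. A filter on reads favours genes that are high in 1 group. In 8 of the called members no library of the other group reached its cutoff. Of these, Cyp1b1, Cyp2c23, Cyp4f14 and Gstt1 were higher, and Cyp2d22, Cyp2j8, Cyp2j12 and Cyp3a16 were lower. Other higher members, for example Gsta1, Gsta3, Gsta4 and Gstm6, also had control libraries under the cutoff. Their place in the test likewise depended on the Sox10ko libraries.

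By superfamily, 9 of 24 tested P450 genes were higher, 8 were lower and 7 did not pass (median log2 fold change 0.43). Of 16 tested aldehyde dehydrogenase genes, 9 were higher, 1 was lower and 6 did not pass (median 0.53). Among 15 tested glutathione transferase genes, 11 were higher, none was lower and 4 did not pass (median 2.11). The counts fell when control libraries were left out. Without control replicate 3, 6 P450 genes were higher and 5 lower, and 4 aldehyde dehydrogenase genes and 8 glutathione transferase genes were higher, while the count over all genes fell from 4939 to 2869. Without control replicate 1, 5 aldehyde dehydrogenase and 7 glutathione transferase genes were higher, and without control replicate 2 there were 6 and 9. No called member changed its sign under any alternative tried.

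**Figure D1:**
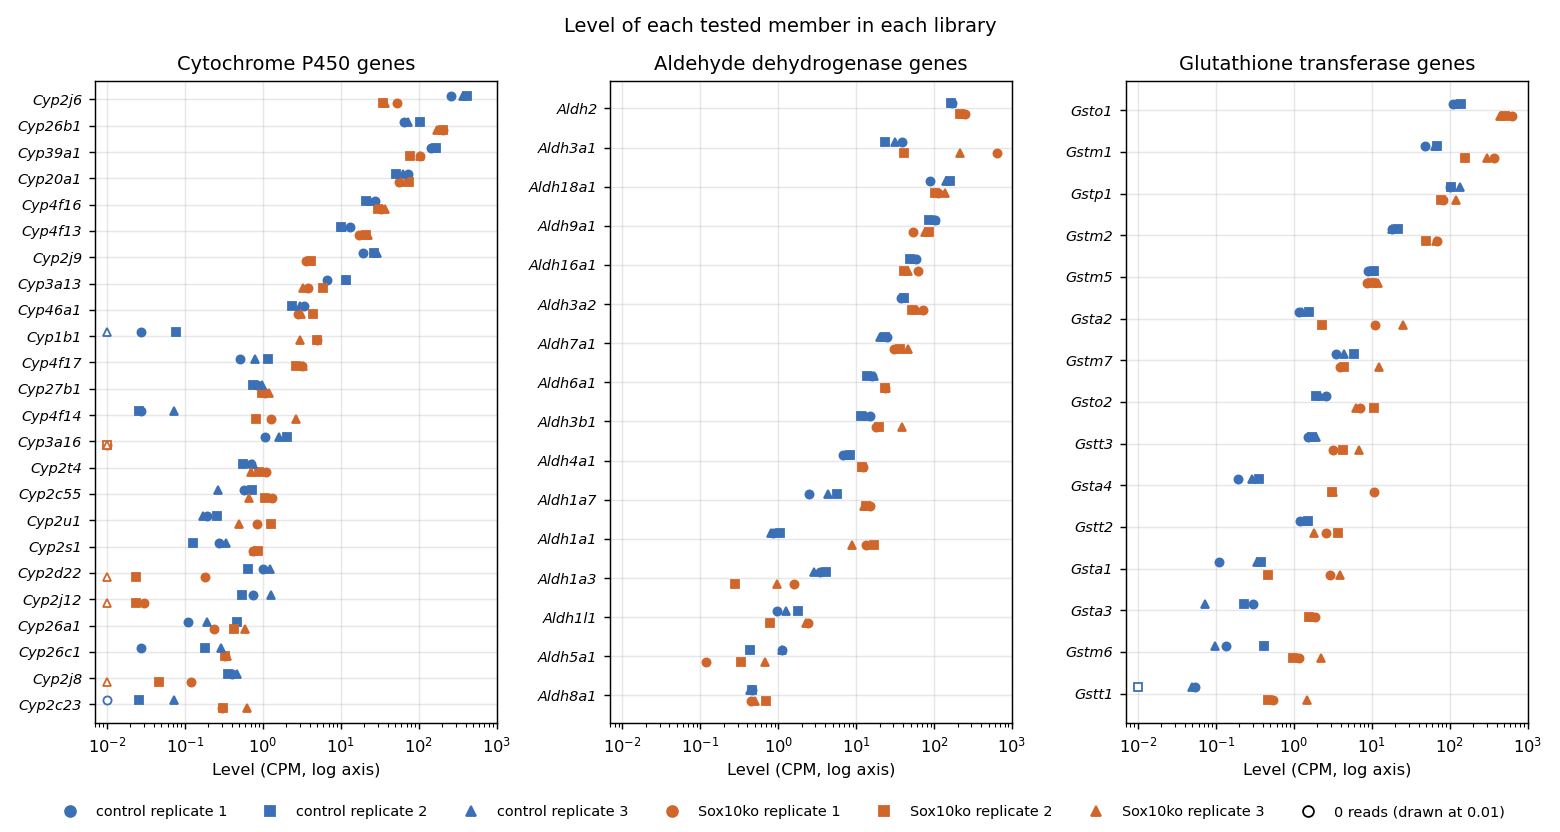
Level of each tested member in each of the 6 libraries, in CPM on a log axis, by superfamily, with genes ordered by their mean level. Blue symbols are control and orange symbols Sox10ko libraries, and open symbols drawn at 0.01 CPM mark 0 reads; Cyp2j6 stands between 258 and 412 CPM in control and between 35.0 and 52.4 CPM in Sox10ko, and Aldh3a1 is spread from 41.1 to 639 CPM within Sox10ko.

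**Figure D2:**
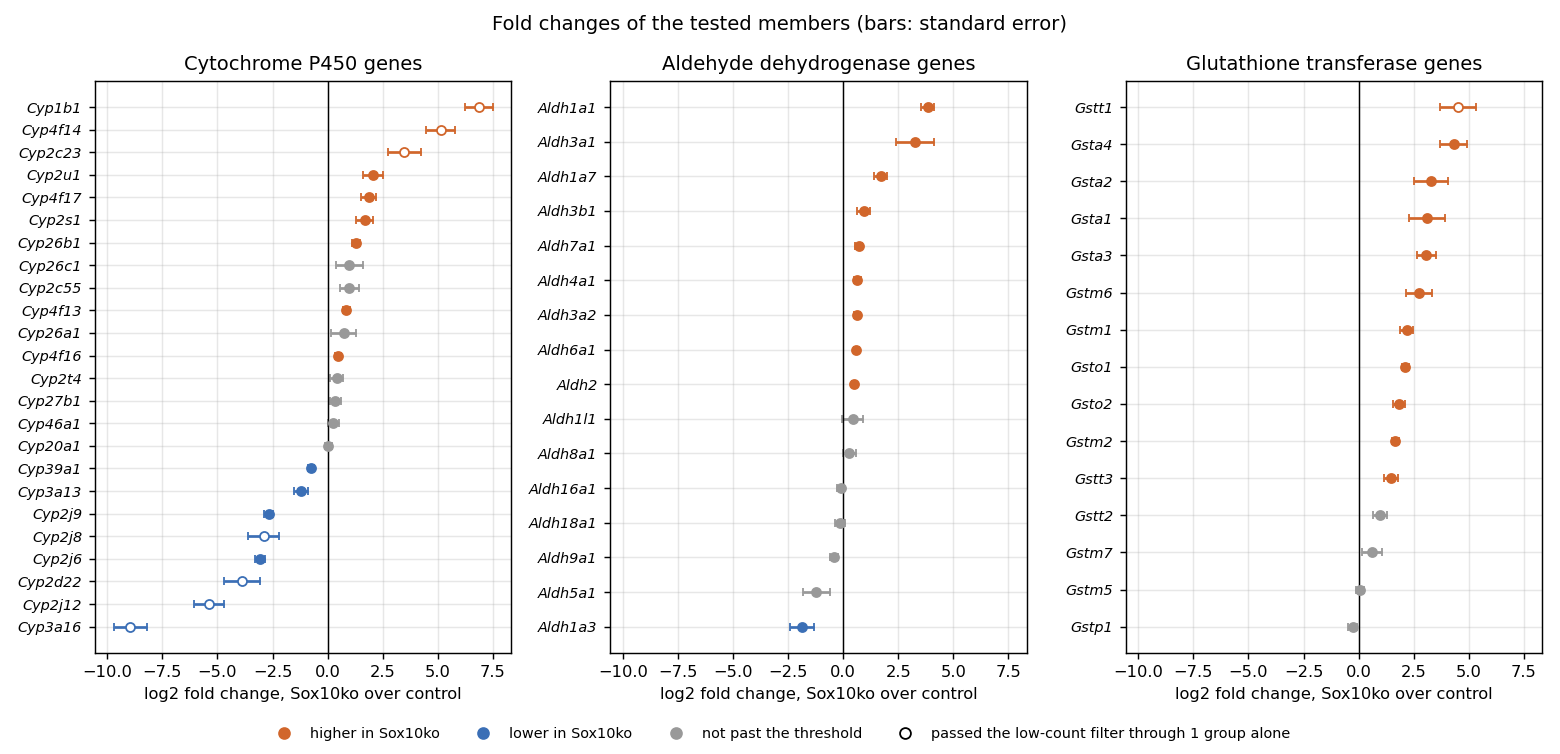
Log2 fold change of Sox10ko over control for each tested member, with bars for the standard error, by superfamily. Orange points were higher (29 genes), blue points lower (9 genes) and grey points did not pass (17 genes). Open points, labelled as passing the low-count filter through 1 group alone, had no library of the other group over its cutoff. There the size of the fitted change depends on very few reads.

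Per length, the make-up of each superfamily's RNA differed between the groups. The summed P450 level was 217 ± 26.5 CPM per kb of exon in control and 135 ± 4.84 CPM per kb in Sox10ko. Cyp2j6 made up 43.9 ± 5.07% of it in control and 8.53 ± 1.99% in Sox10ko, and Cyp26b1 6.92 ± 1.17% and 27.0 ± 1.79%. The share of Cyp39a1 was 24.2 ± 0.954% and 23.2 ± 4.36%. The summed glutathione transferase level was 201 ± 21.4 CPM per kb in control and 585 ± 117 CPM per kb in Sox10ko. There Gstp1 led the control libraries with 36.3 ± 4.23% and held 10.5 ± 2.70% in Sox10ko, while Gsto1 held 30.4 ± 2.68% and 45.7 ± 9.02%. The summed aldehyde dehydrogenase level was 144 ± 4.11 CPM per kb in control and 305 ± 159 CPM per kb in Sox10ko. That last spread came with Aldh3a1, which held 68.9%, 13.0% and 40.2% of the superfamily's RNA in Sox10ko replicates 1, 2 and 3 and 8.42% to 14.3% in control.

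**Figure D3:**
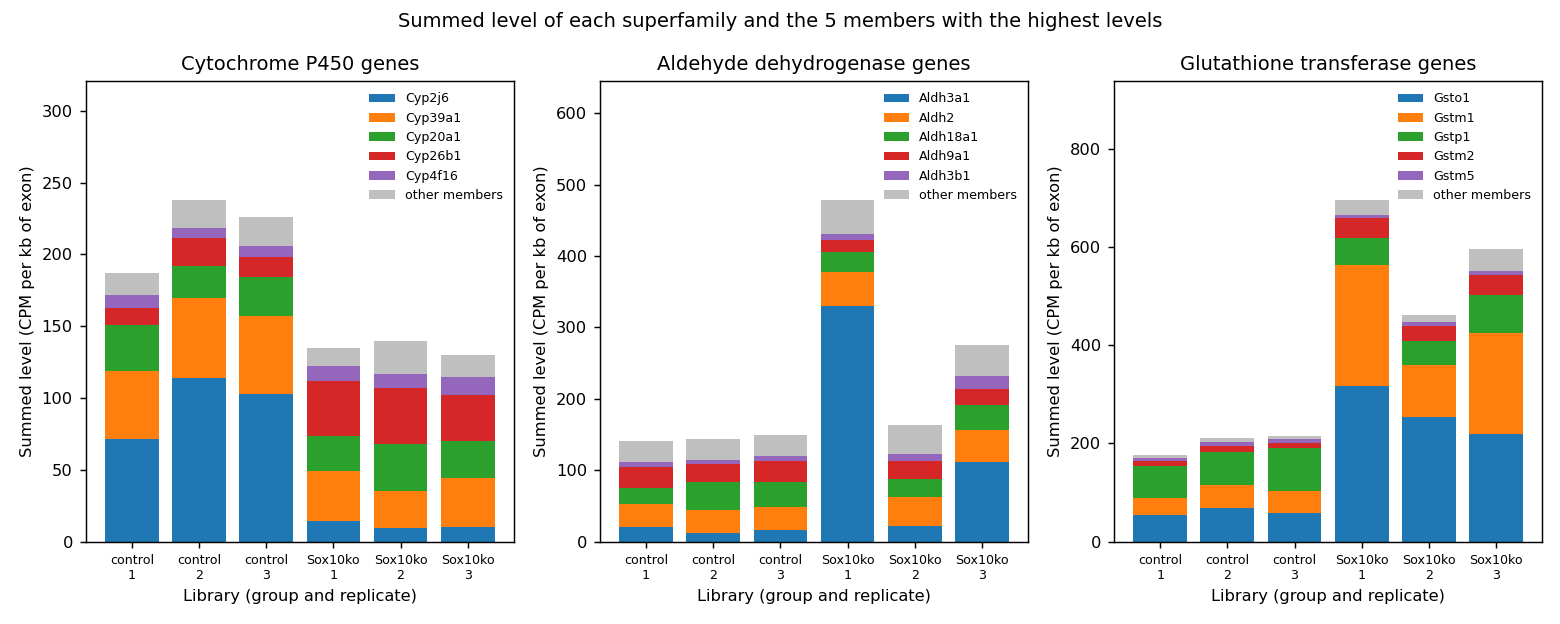
Summed level of each superfamily in each library, in CPM per kb of exon, split into the 5 members with the highest levels and the rest (grey). The Cyp2j6 part shrinks in all 3 Sox10ko libraries, the Gsto1 and Gstm1 parts grow in all 3, and the Aldh3a1 part differs between the Sox10ko libraries.

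The largest fall in level was that of the Cyp2j genes, which encode epoxygenases and hydroxylases of arachidonic acid and other fatty acids. The subfamily has 8 members side by side on chr4:96027534-96664154 (GRCm38). Of these, 4 (Cyp2j5, Cyp2j7, Cyp2j11 and Cyp2j13) had no read in any library and the other 4 were all lower in Sox10ko. Around the cluster, the 6 nearest tested genes (Fggy, Jun, Mysm1, Nfia, Tm2d1 and Patj) included 1 that was higher and 3 that were lower.

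Cyp2j6 (ENSMUSG00000052914, chr4:96516138-96553661, minus strand) was the P450 gene with the highest level per length in control, 96.1 ± 22.0 CPM per kb. The control libraries gave 258, 412 and 370 CPM and the Sox10ko libraries 52.4, 35.0 and 36.9 CPM. Every Sox10ko library lay far below every control library, with a log2 fold change of -3.06 ± 0.23 (edgeR adjusted p = 0.000214). Cyp2j9 (ENSMUSG00000015224, chr4:96568429-96591578), described as a brain-enriched isoform, had 19.4, 26.9 and 29.1 CPM in control and 3.62, 4.13 and 3.98 CPM in Sox10ko. Its log2 fold change was -2.68 ± 0.19 (edgeR adjusted p = 0.000179), and the groups did not overlap. Cyp2j12 was counted by 101 reads over the control libraries and 2 over the Sox10ko libraries, a 50.2-fold ratio of CPM (exact 95% interval 13.5 to 420, counting error only; 32.8-fold without Sox10ko replicate 3; edgeR adjusted p = 0.00149). Cyp2j8 had 48 and 6 reads and a log2 fold change of -2.89 ± 0.70 (edgeR adjusted p = 0.0190). That call was lost without Sox10ko replicate 2 or any 1 control library (adjusted p up to 0.0791), and without Sox10ko replicate 1 the log2 fold change was -3.93. Over their coding parts Cyp2j6 and Cyp2j9 were 82.2% identical, and Cyp2j12 and Cyp2j8 83.4%. Of their 50-base stretches, 0.4% of Cyp2j6, 0.9% of Cyp2j12, 0.8% of Cyp2j8 and none of Cyp2j9 occurred in another gene.

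The RefSeq promoter windows of Cyp2j6, Cyp2j9 and Cyp2j8 are shown because these 3 of the 4 lower neighbours hold the letters ACAAAG, the core that SOX proteins bind, on either strand. The window of the other lower neighbour, Cyp2j12, does not hold them and is not printed. Each runs 5′ to 3′ on the gene's strand from 250 bases before the RefSeq start to 30 bases after it (GRCm38.p6), with ACAAAG or its reverse complement in capitals.
Cyp2j6 (chr4:96553622-96553901, minus strand): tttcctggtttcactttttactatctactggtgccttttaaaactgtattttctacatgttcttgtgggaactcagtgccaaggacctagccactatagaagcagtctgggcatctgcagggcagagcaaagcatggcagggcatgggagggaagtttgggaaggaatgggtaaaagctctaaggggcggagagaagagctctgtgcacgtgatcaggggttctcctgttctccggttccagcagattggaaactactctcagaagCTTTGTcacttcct
Cyp2j9 (chr4:96591456-96591735, minus strand): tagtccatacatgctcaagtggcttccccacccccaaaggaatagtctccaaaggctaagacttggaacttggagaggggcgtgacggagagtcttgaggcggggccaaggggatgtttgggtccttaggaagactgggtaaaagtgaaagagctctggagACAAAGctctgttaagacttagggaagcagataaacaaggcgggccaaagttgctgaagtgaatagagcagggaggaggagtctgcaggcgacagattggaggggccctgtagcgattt
Cyp2j8 (chr4:96507368-96507647, minus strand): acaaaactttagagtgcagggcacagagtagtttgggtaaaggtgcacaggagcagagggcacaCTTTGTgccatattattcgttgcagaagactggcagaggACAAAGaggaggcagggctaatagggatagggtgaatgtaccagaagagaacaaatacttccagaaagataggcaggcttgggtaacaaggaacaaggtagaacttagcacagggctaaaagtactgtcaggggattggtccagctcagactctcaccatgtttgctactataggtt
In Cyp2j6 the match lies at +17 to +22 from the start, where it overlaps a match to TGACNNNGC at +16 to +24. In Cyp2j9 it lies at -89 to -84, and Cyp2j8 has 2 matches, at -186 to -181 and -147 to -142. ACAAAG occurred in 4 of the 6 lower members that have a window (66.7%), these 3 neighbours and Cyp3a13. It occurred in 6 of 22 higher members (27.3%), in 14 of 44 tested members (31.8%) and in 21.0% of all 27025 genes with a window. A match is a description of these letters and not of a bound site.

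Both tested genes of the Cyp3a subfamily, broad drug and steroid hydroxylases of liver and gut, were lower. Cyp3a13 (ENSMUSG00000029727) fell from 6.69, 11.8 and 11.6 CPM to 3.83, 5.98 and 3.26 CPM, with no overlap and a log2 fold change of -1.20 ± 0.32 (edgeR adjusted p = 0.0252). It no longer passed without Sox10ko replicate 1 or 3 or control replicate 2 or 3 (adjusted p up to 0.0905). Cyp3a16 had 187 reads over the control libraries and 0 over the Sox10ko libraries, at least 61.9-fold lower against a floor of 3 reads over the group (edgeR adjusted p = 0.00106; at least 39.2-fold without Sox10ko replicate 2 and 40.5-fold without Sox10ko replicate 3). Its coding part is 92.8% identical to that of Cyp3a11, which had no read. At that identity the gene was marked as uncertain, although only 10.7% of its 50-base stretches also occur in another gene. Cyp2d22, of the subfamily whose human member handles many psychoactive drugs, had 1.00, 0.640 and 1.24 CPM in control and 0.180, 0.0235 and 0 CPM in Sox10ko. Its log2 fold change was -3.89 ± 0.82 (edgeR adjusted p = 0.0108). The value was -6.00 without Sox10ko replicate 1, and the call was lost without control replicate 3 (adjusted p = 0.0532, the highest of its alternatives).

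Among the sterol P450 genes, Cyp39a1, an oxysterol hydroxylase, was the one with many reads. Control libraries gave 144, 169 and 167 CPM and Sox10ko libraries 106, 77.7 and 103 CPM, without overlap. The log2 fold change was -0.75 ± 0.14 (edgeR adjusted p = 0.00716). Cyp46a1, the cholesterol hydroxylase of neurons, had 2.90 ± 0.497 CPM in control and 3.46 ± 0.869 CPM in Sox10ko and did not pass (edgeR adjusted p = 0.488). The oxysterol and bile acid enzymes Cyp27a1 and Cyp7b1 had 4 and 1 reads in control and none in Sox10ko, too few to compare. Cyp20a1, an orphan enzyme with no settled substrate, had the third highest P450 level per length over all libraries. It stood at 62.2 ± 10.7 CPM in control and 63.3 ± 10.4 CPM in Sox10ko (log2 fold change 0.03 ± 0.17, edgeR adjusted p = 0.925).

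Cyp1b1 had the largest rise of the tested members. The enzyme hydroxylates oestradiol and polycyclic hydrocarbons, and its gene is a textbook target of the aryl hydrocarbon receptor. Cyp1b1 (ENSMUSG00000024087, chr17:79701537-79715061) was nearly silent in control, with 0.0271, 0.0768 and 0 CPM (4 reads in all), and had 5.03, 4.92 and 2.99 CPM in Sox10ko (498 reads). The log2 fold change was 6.85 ± 0.63 (edgeR adjusted p = 0.000409). With so few control reads its size is loosely set: it was 8.05 without control replicate 2 and 6.25 without control replicate 3. Cyp1a1, the best known target of the same receptor, stayed under the filter with 8, 0 and 1 reads in control and 21, 6 and 5 in Sox10ko, and Cyp1a2 had 3 reads in all. Ahr, which encodes the receptor, had 22.9, 45.3 and 25.7 CPM in control and 187, 81.6 and 127 CPM in Sox10ko, a log2 fold change of 2.07 ± 0.37 (edgeR adjusted p = 0.00540). Tiparp, another of its known targets, had 26.1 ± 7.37 CPM in control and 112 ± 18.2 CPM in Sox10ko (2.11 ± 0.23 on the same scale, edgeR adjusted p = 0.000808), with no overlap in either gene.
The promoter window of Cyp1b1 is given because it holds GCGTG, the core that the receptor binds, once, at -76 to -72; the capitals show it as it reads on the gene's strand, in reverse complement.
Cyp1b1 (chr17:79715032-79715311, minus strand): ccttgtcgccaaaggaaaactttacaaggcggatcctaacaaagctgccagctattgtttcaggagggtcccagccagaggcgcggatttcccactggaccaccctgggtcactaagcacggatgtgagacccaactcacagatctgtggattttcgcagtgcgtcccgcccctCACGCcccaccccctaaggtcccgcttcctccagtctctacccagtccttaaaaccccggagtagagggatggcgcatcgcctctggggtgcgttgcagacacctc
GCGTG on either strand occurred in 9 of 22 higher members with a window (40.9%), in 2 of 6 lower members (33.3%) and in 35.2% of all genes with one. The 2 lower members were Cyp2j9 and Cyp2j12. The printed Cyp1b1 window also holds ACAAAG, at -212 to -207, left in lower case.

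The Cyp4f genes, which encode omega-hydroxylases of fatty acids and leukotrienes, moved the other way from the Cyp2j genes. Of 9 members, 8 lie within chr17:32452723-32947402, and the 4 tested ones were all higher. Of the 6 nearest tested genes outside that span, 1 was higher and none lower. The tested genes Zfp871, Zfp811, Zfp799 and Zfp870 lie within the span and were not counted there. Cyp4f14, whose enzyme inactivates leukotriene B4, had 5 reads over the control libraries (0.0271, 0.0256 and 0.0732 CPM) and 185 over the Sox10ko libraries (1.29, 0.821 and 2.66 CPM). Its log2 fold change was 5.12 ± 0.67 (edgeR adjusted p = 0.00159), 4.51 without Sox10ko replicate 3 and 5.73 without control replicate 3. Cyp4f17 rose from 0.515, 1.18 and 0.805 CPM to 3.14, 2.70 and 3.29 CPM (a log2 fold change of 1.86 ± 0.33, edgeR adjusted p = 0.00564). Cyp4f13 had 13.3, 9.96 and 10.3 CPM in control and 17.2, 21.2 and 22.3 CPM in Sox10ko, a log2 fold change of 0.85 ± 0.17 (edgeR adjusted p = 0.00911, and 0.0510 without control replicate 3). The smallest change was that of Cyp4f16, from 24.1 ± 3.18 to 33.1 ± 3.55 CPM (a log2 fold change of 0.46 ± 0.14, edgeR adjusted p = 0.0401). Leaving out Sox10ko replicate 1 or 3 or control replicate 2 or 3 ended that call (adjusted p up to 0.141), and 26.5% of the 50-base stretches of Cyp4f16 also occur in another gene, mostly Cyp4f37.

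Genes of retinoic acid synthesis and breakdown changed on both sides. Cyp26b1, which hydroxylates and so inactivates retinoic acid, is the highest of its subfamily here. The control libraries gave 65.0, 105 and 72.6 CPM and the Sox10ko libraries 204, 208 and 174 CPM, with no overlap and a log2 fold change of 1.27 ± 0.19 (edgeR adjusted p = 0.00261). Cyp26a1 and Cyp26c1, with the same activity, stayed under 1 CPM in every library and did not pass (edgeR adjusted p = 0.383 and 0.266). On the synthetic side, Aldh1a1 (ENSMUSG00000053279, chr19:20492715-20643465), a retinaldehyde dehydrogenase, had 0.867, 1.05 and 0.805 CPM in control. Its level in Sox10ko was 13.3, 17.1 and 8.81 CPM, and the log2 fold change was 3.84 ± 0.30 (edgeR adjusted p = 0.000225). Aldh1a3, with the same activity, was the only aldehyde dehydrogenase gene called lower. It went from 3.39, 4.12 and 2.90 CPM to 1.59, 0.281 and 0.971 CPM (a log2 fold change of -1.88 ± 0.54, edgeR adjusted p = 0.0347). That call was lost without Sox10ko replicate 3 or any 1 control library (adjusted p up to 0.0955), and the log2 fold change was -2.48 without Sox10ko replicate 1. Aldh1a2, the third enzyme of this kind, had 1 read in control and 2 in Sox10ko.

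Aldh1a7, a close copy of Aldh1a1 on the same chromosome, had 2.49, 5.66 and 4.29 CPM in control and 14.9, 13.2 and 12.6 CPM in Sox10ko. The log2 fold change was 1.71 ± 0.29 (edgeR adjusted p = 0.00481). The coding parts of the pair are 91.6% identical, which makes the split of reads between them uncertain, although only 6.5% of the 50-base stretches of Aldh1a1 also occur elsewhere. A 60-base stretch of their coding sequences (bases 317 to 376) shows how they are told apart, with the 16 bases that differ in capitals, out of 126 over the whole coding part.
Aldh1a1: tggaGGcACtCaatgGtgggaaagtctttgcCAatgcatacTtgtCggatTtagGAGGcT
Aldh1a7: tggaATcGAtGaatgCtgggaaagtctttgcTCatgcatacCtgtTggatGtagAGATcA
Other genes of retinoid handling were counted beside them. Of 13 tested from a list of 20, 5 were higher and none was lower (38.5% called, beside 32.0% of all tested genes). The median log2 fold change was 0.53. Dhrs9, a retinol dehydrogenase, had 0, 0.102 and 0.0732 CPM in control and 4.55, 2.86 and 17.2 CPM in Sox10ko (log2 fold change 7.03 ± 1.03, edgeR adjusted p = 0.00248; 5.87 without Sox10ko replicate 3). Stra6, the cell's retinol receptor, rose from 0.823 ± 0.0831 to 17.2 ± 17.6 CPM, with 3.41, 11.1 and 37.0 CPM in the Sox10ko libraries (log2 fold change 4.38 ± 0.85, edgeR adjusted p = 0.00785; 3.13 without Sox10ko replicate 3). Rdh14, a retinal reductase, had 14.4 ± 2.25 CPM in control and 22.6 ± 2.10 CPM in Sox10ko (0.64 ± 0.16, edgeR adjusted p = 0.0185). This call was lost without control replicate 2 or 3 and with the replicate block (adjusted p up to 0.0551).

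Among the remaining tested P450 genes, 3 were higher, all at under 2 CPM. Cyp2u1, a hydroxylase of long fatty acids, went from 0.205 ± 0.0447 to 0.867 ± 0.385 CPM (a log2 fold change of 2.06, edgeR adjusted p = 0.0113). Cyp2s1, found in epithelia, went from 0.247 ± 0.109 to 0.796 ± 0.0632 CPM (1.68, edgeR adjusted p = 0.0156). Cyp2c23, an arachidonic acid epoxygenase, had 4 reads in control and 48 in Sox10ko (3.47, edgeR adjusted p = 0.0119; 4.64 without control replicate 3). Leaving out 1 control library ended each of these calls: replicate 1 or 3 for Cyp2u1, replicate 1 for Cyp2s1 and replicate 2 for Cyp2c23 (adjusted p up to 0.0614). Exons of Cyp2u1 and Cyp2s1 overlap genes on the opposite strand over 548 and 260 bases. Cyp2c55, Cyp2t4 and Cyp27b1, the last of them the enzyme that activates vitamin D, did not pass (edgeR adjusted p = 0.128, 0.331 and 0.336).

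Some P450 genes had reads almost wholly in Sox10ko and yet failed the low-count filter because too few libraries held them. Cyp4b1, which oxidises fatty acids and activates furan toxins, had 0 reads in each control library and 0, 724 and 122 reads in Sox10ko. This is at least 284-fold higher over the group, but Sox10ko replicate 1 was at 0 like the controls, and the bound was 64.7-fold without replicate 2. Cyp11b1, the last step of corticosterone synthesis in the adrenal, had 0 reads in control and 4, 65 and 69 in Sox10ko, at least 46.3-fold higher (30.1 to 63.1 when any 1 library was left out). Both passed with no low-count filter (edgeR adjusted p = 0.00319 for Cyp4b1 and 0.000683 for Cyp11b1) and with DESeq2 (adjusted p = 0.0295 and 3.03e-06). They also passed without Sox10ko replicate 1 (edgeR adjusted p = 0.00864 and 0.00201), the Sox10ko library with the fewest reads of both genes. Both were picked after their reads were seen, so these passes are no separate support. Cyp4a12b, a fatty acid hydroxylase of kidney, had 42 of its 44 reads in Sox10ko replicate 2. Cyp7a1, the rate-limiting enzyme of bile acid synthesis, had 1 read in control and 14, 8 and 3 in Sox10ko, a 25.2-fold ratio (exact 95% interval 4.12 to 1033; at least 5.59-fold without control replicate 2). Cyp11a1, which starts steroid synthesis, had 8, 3 and 7 reads in control and 6, 18 and 51 in Sox10ko. In the other direction, Cyp19a1, the aromatase that makes oestrogens, had 2, 6 and 7 reads in control and none in Sox10ko, at least 4.97-fold lower. Cyp2e1, the ethanol-oxidising enzyme of liver, had 3 reads in all. The summed level of the adrenal and gonadal steroid cell markers, given beside Cyp11b1, overlapped between the groups. It was 4.44 to 5.15 CPM in control and 3.96 to 5.39 CPM in Sox10ko. Nearly all of it was Star (4.57 ± 0.489 and 4.24 ± 0.634 CPM), which did not pass. The other 4 of the 5 markers were under 1 CPM in both groups and were not tested. Among them, Nr5a1 counts were 1, 3 and 5 for control against 12, 6 and 14 for Sox10ko. Mc2r went the other way, from 8 to 2 over the groups, and Hsd3b1 and Lhcgr had at most 2 per group.

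The 3 tested Aldh3 genes, for enzymes that oxidise long-chain and peroxidised lipid aldehydes, were all higher. Aldh3a1 (ENSMUSG00000019102, chr11:61207537-61218421), abundant in cornea, had the largest and the most uneven rise. It stood at 39.1, 23.5 and 31.0 CPM in control and at 639, 41.1 and 215 CPM in Sox10ko. The lowest Sox10ko library lay just above the highest control library, and the highest lay 15.5-fold above the lowest within Sox10ko. The log2 fold change was 3.26 ± 0.86 (edgeR adjusted p = 0.0259). Without Sox10ko replicate 1 it was 2.03, and without any 1 control library, or with limma-voom, the call was lost (adjusted p up to 0.0960). Its neighbour Aldh3a2, the fatty aldehyde dehydrogenase, was steadier, with 37.2, 41.1 and 41.1 CPM in control and 72.6, 51.5 and 60.8 CPM in Sox10ko. There the log2 fold change was 0.63 ± 0.14 (edgeR adjusted p = 0.0128, and up to 0.0599 without control replicate 1 or 3). Aldh3b1 rose from 13.4 ± 1.83 to 25.6 ± 11.5 CPM, with Sox10ko replicate 3 at 38.8 CPM and the other two at 18.2 and 19.7 CPM (a log2 fold change of 0.94 ± 0.30, edgeR adjusted p = 0.0491). It was lost without Sox10ko replicate 3 or any 1 control library, with limma-voom, with the replicate block and with DESeq2 size factors (adjusted p up to 0.144).

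Aldh2 and 3 genes of amino acid breakdown rose by less than 2-fold each, whereas Aldh18a1 and Aldh5a1, which also act in amino acid metabolism, did not pass. Aldh2, the acetaldehyde dehydrogenase of mitochondria, had 167, 166 and 168 CPM in control and 249, 215 and 234 CPM in Sox10ko, a log2 fold change of 0.48 ± 0.09 (edgeR adjusted p = 0.00779). Aldh6a1, of valine breakdown, went from 15.6 ± 1.52 to 23.5 ± 0.470 CPM (0.59 ± 0.12, edgeR adjusted p = 0.00935). Aldh4a1, of proline breakdown, went from 7.69 ± 0.778 to 12.1 ± 0.107 CPM (0.65 ± 0.14, edgeR adjusted p = 0.0136). Aldh7a1, of lysine breakdown, went from 23.1 ± 2.32 CPM to 30.3, 36.0 and 46.1 CPM (0.70 ± 0.17, edgeR adjusted p = 0.0192). In none of the 4 did the groups overlap. The calls of Aldh4a1 (without control replicate 1 or 3) and Aldh7a1 (without control replicate 2 or 3) were lost at an adjusted p up to 0.0876. Of the 50-base stretches of Aldh4a1, 45.0% also belong to the readthrough gene Gm21969. The exons of Aldh6a1 and Aldh7a1 overlap genes on the opposite strand over 1078 and 476 bases, and those of Aldh2 over 130 bases, so that reads are uncertain there because the strand setting of the counting is not given.

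The other 6 tested aldehyde dehydrogenase genes did not pass. Aldh9a1, of carnitine synthesis, had 101, 85.6 and 102 CPM in control and 54.2, 84.9 and 77.3 CPM in Sox10ko, without overlap but with an edgeR adjusted p of 0.109. Aldh18a1, which makes proline, had 130 ± 36.8 and 118 ± 19.8 CPM, and Aldh16a1, an unusual member, 53.7 ± 4.66 and 49.7 ± 10.6 CPM. Aldh1l1, a folate enzyme known as an astrocyte marker, had 0.975, 1.82 and 1.24 CPM in control and 2.42, 0.774 and 2.27 CPM in Sox10ko (edgeR adjusted p = 0.520). Aldh5a1, of GABA breakdown, and Aldh8a1 stayed at or under 1.12 CPM in every library, with log2 fold changes of -1.23 ± 0.61 and 0.28 ± 0.30. The other 4 genes of the superfamily, Aldh1a2, Aldh1b1, Aldh3b2 and Aldh3b3, had at most 3 reads in all.

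Glutathione transferases of the omega and mu classes carried most of the rise in their superfamily. Gsto1 (ENSMUSG00000025068, chr19:47854970-47864790), whose enzyme reduces dehydroascorbate and removes glutathione from proteins, had 111, 139 and 119 CPM in control and 640, 513 and 444 CPM in Sox10ko. Its log2 fold change was 2.11 ± 0.16 (edgeR adjusted p = 0.000222). Gsto2, the neighbouring gene of the same class, had 2.63, 1.92 and 2.15 CPM in control and 7.06, 10.7 and 6.22 CPM in Sox10ko (1.84 ± 0.27, edgeR adjusted p = 0.00255). Every Sox10ko library stood above every control library for both.

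The 7 mu class genes lie together on chr3:107895821-108044894. Of the 5 that were tested, 3 were higher and 2 did not pass. Gstm1, with broad conjugating activity, rose from 48.9, 68.2 and 65.6 CPM to 366, 155 and 304 CPM (a log2 fold change of 2.17 ± 0.31, edgeR adjusted p = 0.00235). Gstm2 rose from 18.0, 21.9 and 18.4 CPM to 68.7, 49.6 and 66.6 CPM (1.66 ± 0.16, edgeR adjusted p = 0.000440). Gstm6 rose from 0.135, 0.409 and 0.0976 CPM to 1.17, 0.985 and 2.24 CPM (2.76 ± 0.59, edgeR adjusted p = 0.0116). In all 3 genes Sox10ko replicate 2 was the lowest of its group and still above every control library. The Gstm6 call was lost without control replicate 1 or 3 (adjusted p up to 0.0536), and its log2 fold change was 3.61 without control replicate 2. Gstm5 stood at 9.94 ± 0.883 CPM in control and 10.3 ± 1.76 CPM in Sox10ko (edgeR adjusted p = 0.848). Gstm7 had 3.44, 5.86 and 4.39 CPM against 3.92, 4.36 and 12.5 CPM (edgeR adjusted p = 0.370). For Gstm1, 33.0% of the 50-base stretches also occur in another gene, mostly the pseudogene Gstm2-ps1, so its level is partly uncertain.

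All 4 alpha class members were higher. Gsta4 (ENSMUSG00000032348, chr9:78182774-78209349), the main enzyme against hydroxynonenal from oxidised lipids, had 0.190, 0.358 and 0.293 CPM in control and 10.7, 3.07 and 3.16 CPM in Sox10ko. The log2 fold change was 4.31 ± 0.63 (edgeR adjusted p = 0.00243) and 3.45 without Sox10ko replicate 1. Gsta3, which lies apart on chromosome 1, had 0.298, 0.230 and 0.0732 CPM in control and 1.89, 1.57 and 1.64 CPM in Sox10ko (3.08 ± 0.45, edgeR adjusted p = 0.00248). The groups did not overlap in either. Gsta2 had 1.16, 1.56 and 1.27 CPM in control and 11.0, 2.32 and 25.5 CPM in Sox10ko (3.28 ± 0.77, edgeR adjusted p = 0.0172; 2.31 without Sox10ko replicate 3). Gsta1 had 0.108, 0.384 and 0.342 CPM in control and 2.87, 0.469 and 3.93 CPM in Sox10ko (3.10 ± 0.81, edgeR adjusted p = 0.0249). Both calls were lost without any 1 control library, with limma-voom and with the replicate block. That of Gsta1 was also lost without Sox10ko replicate 1 or 3 (adjusted p up to 0.0989 for the pair).

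Gsta1 and Gsta2 are shown side by side because their coding parts are 97.6% identical, which limits how far their reads can be told apart. The stretch covers bases 449 to 508 of each coding sequence, with the 5 bases that differ in capitals, out of 16 over the whole coding part.
Gsta1: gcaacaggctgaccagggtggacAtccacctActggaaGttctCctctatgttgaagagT
Gsta2: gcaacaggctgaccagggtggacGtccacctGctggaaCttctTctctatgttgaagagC
Of the 50-base stretches of Gsta1, 89.7% also occur in another gene, mostly Gm3776, and of those of Gsta2 64.2%. Gm3776, which lies between them, had 0.244, 0.358 and 0.122 CPM in control and 4.22, 1.01 and 4.83 CPM in Sox10ko (log2 fold change 3.78 ± 0.68, edgeR adjusted p = 0.00603). Gm10639, also between them, did not rise and did not pass. It had 0.135, 0.742 and 0.268 CPM in control and 0.0599, 0.0704 and 0.647 CPM in Sox10ko (log2 fold change -0.54 ± 0.96, edgeR adjusted p = 0.709). The levels of Gsta1 and Gsta2 are thus uncertain one by one, while Gsta3 and Gsta4 share no 50-base stretch with another gene. None of the 6 nearest tested genes outside the span of Gsta4, Gsta1 and Gsta2 was called.

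In the theta class, whose enzymes act on small halogenated compounds, Gstt1 had 0.0542, 0 and 0.0488 CPM in control and 0.539, 0.469 and 1.49 CPM in Sox10ko. The log2 fold change was 4.49 ± 0.82 (edgeR adjusted p = 0.00617), resting on 4 control reads, and was 3.75 without Sox10ko replicate 3. Gstt3 went from 1.54, 1.71 and 1.93 CPM to 3.17, 4.34 and 6.82 CPM (1.47 ± 0.32, edgeR adjusted p = 0.0120, and 0.0512 without control replicate 1). Its exons share 524 bases with those of Gm20441 on the same strand. Gstt2 had 1.19, 1.51 and 1.46 CPM in control and 2.57, 3.68 and 1.84 CPM in Sox10ko, without overlap, and just missed the threshold at an edgeR adjusted p of 0.0503 (0.0240 to 0.158 over its alternatives).

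The pi class stood apart. Gstp1 (ENSMUSG00000060803, chr19:4035407-4037985), an abundant enzyme of many cell types, had 101, 104 and 134 CPM in control and 82.7, 77.9 and 120 CPM in Sox10ko. These ranges overlap, and the log2 fold change of -0.27 ± 0.19 did not pass (edgeR adjusted p = 0.329). It passed as lower (-0.50, edgeR adjusted p = 0.0480) without Sox10ko replicate 3, the highest of its group. Per length it was the glutathione transferase with the highest level in control, 73.0 ± 11.8 CPM per kb, followed by Gsto1 at 60.9 ± 7.18 and Gstm1 at 41.3 ± 7.12 CPM per kb. The SDs of the first pair overlap. In Sox10ko the order was Gsto1 at 263 ± 49.2, Gstm1 at 187 ± 73.4 and Gstp1 at 60.5 ± 15.1 CPM per kb, where Gstp1 stood below the others by more than their SDs and the first pair did not differ beyond them. Gstp2 had 2, 4 and 2 reads in control and 10, 29 and 4 in Sox10ko and was not tested. The start of both coding sequences (bases 1 to 60) is printed to show how alike they are, with the 6 bases that differ in capitals, out of 12 in the whole coding part.
Gstp1: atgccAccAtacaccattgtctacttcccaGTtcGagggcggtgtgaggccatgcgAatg
Gstp2: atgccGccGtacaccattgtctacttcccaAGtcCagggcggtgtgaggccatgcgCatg
The coding parts are 98.1% identical and 62.3% of the 50-base stretches of Gstp1 also occur in another gene, mostly Gstp2, so some reads of either may be lost or misplaced.

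The share of promoter windows with TGACNNNGC, the core of the antioxidant response element that NRF2 binds, was near that of all genes. On either strand the letters occurred in 2 of 22 higher members with a window (9.1%), in 1 of 6 lower members (16.7%) and in 14.0% of all genes with one. The 2 higher members, Gsta3 and Cyp4f14, are printed with the match in capitals (GRCm38.p6, same span as above).
Gsta3 (chr1:21240335-21240614, plus strand): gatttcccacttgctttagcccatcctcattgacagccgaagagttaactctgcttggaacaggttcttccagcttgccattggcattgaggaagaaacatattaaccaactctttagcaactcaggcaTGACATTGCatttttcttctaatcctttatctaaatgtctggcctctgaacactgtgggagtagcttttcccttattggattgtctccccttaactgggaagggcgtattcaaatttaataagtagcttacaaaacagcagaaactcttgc
Cyp4f14 (chr17:32917058-32917337, minus strand): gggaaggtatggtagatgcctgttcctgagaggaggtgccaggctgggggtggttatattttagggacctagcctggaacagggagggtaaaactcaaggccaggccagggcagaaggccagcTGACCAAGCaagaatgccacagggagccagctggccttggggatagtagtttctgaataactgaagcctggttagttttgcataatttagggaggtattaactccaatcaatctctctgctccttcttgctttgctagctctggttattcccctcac
The match lies at -121 to -113 in Gsta3 and at -127 to -119 in Cyp4f14. RefSeq windows were at hand for 109 of the 139 members and 44 of the 55 tested ones. They cover 250 bases before the start and 50 after it, and no match says only that these letters are not in that window.

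The partners and companions of these enzymes were counted from 7 lists with 148 genes, of which 147 were in the files and 111 tested. Over all lists 47 were higher and 5 lower (46.8% called, median log2 fold change 0.52). Of all tested genes, 32.0% were called, 17.3% higher and 14.7% lower. The called share was 38.5% for retinoid handling, 40.0% for redox partners and for glutathione supply, and 41.2% for sensors, not far above that background. It was 53.8% for the transporters, 55.6% for the other glutathione transferases and 58.3% for the other oxidising and conjugating enzymes. Among the P450 redox partners, 4 of 10 tested genes were higher and none lower. Por, the reductase that feeds electrons to microsomal P450s, did not pass, with 157 ± 16.3 CPM in control and 179 ± 40.7 CPM in Sox10ko (edgeR adjusted p = 0.440). Pgrmc1, a haem-binding P450 partner, rose from 182 ± 6.61 to 372 ± 25.0 CPM (a log2 fold change of 1.03 ± 0.09, edgeR adjusted p = 0.000392). Pgrmc2 and the cytochrome b5 reductase Cyb5r1 rose by 0.84 and 0.94 on the log2 scale (edgeR adjusted p = 0.000756 and 0.00386).

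Of 17 tested sensors of foreign compounds and oxidants, 5 were higher and 2 lower. Beside Ahr and Tiparp, Nfe2l1, a relative of the NRF2 gene, rose from 134 ± 11.7 to 289 ± 44.4 CPM (a log2 fold change of 1.11 ± 0.14, edgeR adjusted p = 0.00121). Bach1, which represses NRF2 target genes, fell from 63.7 ± 6.75 to 34.9 ± 2.33 CPM (-0.87 ± 0.11, edgeR adjusted p = 0.00151). Arnt2, a partner of receptors of the Ahr kind, fell from 295 ± 44.4 to 153 ± 28.6 CPM (-0.95 ± 0.17, edgeR adjusted p = 0.00609).

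Among 25 tested genes of glutathione supply and NRF2 target enzymes, 9 were higher and 1 lower. Nqo1, a quinone reductase and a standard NRF2 target, had 17.6, 12.2 and 18.1 CPM in control and 207, 53.3 and 251 CPM in Sox10ko (log2 fold change 3.41 ± 0.55, edgeR adjusted p = 0.00365). As in Gstm1, Gstm2 and Gstm6, Sox10ko replicate 2 was the lowest of its group. Gss, the glutathione synthetase, rose from 3.97 ± 0.646 to 12.7 ± 3.16 CPM (1.67 ± 0.24, edgeR adjusted p = 0.00245), and Glrx, a glutaredoxin, from 11.3 ± 0.771 to 26.3 ± 4.97 CPM (1.22 ± 0.17, edgeR adjusted p = 0.00188). Gclc, the catalytic subunit of the first step of glutathione synthesis, did not pass at 137 ± 36.4 and 227 ± 66.9 CPM (edgeR adjusted p = 0.0736). Taldo1, of the pentose phosphate pathway, fell from 365 ± 48.5 to 240 ± 47.0 CPM (-0.60 ± 0.17, edgeR adjusted p = 0.0307). It no longer passed without Sox10ko replicate 2 or 3 or control replicate 1 or 3 (adjusted p up to 0.104).

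Of 9 tested glutathione transferases outside the 5 classes, 4 were higher and 1 lower, among them the microsomal enzymes. Mgst1 rose from 18.3 ± 1.54 to 90.2 ± 22.6 CPM (a log2 fold change of 2.30 ± 0.19, edgeR adjusted p = 0.000261). Mgst2 and Mgst3 rose by 1.81 and 1.77 on the log2 scale (edgeR adjusted p = 0.00130 and 0.000194), and Gstcd fell by 0.59 (edgeR adjusted p = 0.00597). The list's median was -0.03, since its other tested genes lay near or below 0.

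Among 24 tested genes of other oxidising and conjugating enzymes, 13 were higher and 1 lower. Cbr2, a carbonyl reductase, had 0.190, 0.179 and 0.146 CPM in control and 32.4, 33.5 and 28.6 CPM in Sox10ko, a log2 fold change of 7.50 ± 0.19 (edgeR adjusted p = 6.92e-06). Maoa, a monoamine oxidase that produces aldehydes, rose from 52.0 ± 5.51 to 266 ± 47.7 CPM (2.35 ± 0.16, edgeR adjusted p = 0.000147). Ephx1, the microsomal epoxide hydrolase, rose from 433 ± 2.85 to 844 ± 15.2 CPM (0.96 ± 0.08, edgeR adjusted p = 0.000346). Akr1b8, an aldo-keto reductase, fell from 178 ± 23.3 to 104 ± 6.35 CPM (-0.78 ± 0.12, edgeR adjusted p = 0.00315). Of 13 tested conjugate and drug transporters, 7 were higher and none lower. The organic anion carrier Slco3a1 rose from 42.9 ± 7.54 to 152 ± 6.72 CPM (1.82 ± 0.14, edgeR adjusted p = 0.000227), and Abcb1b, a P-glycoprotein gene, from 41.1 ± 4.94 to 85.5 ± 15.8 CPM (1.06 ± 0.16, edgeR adjusted p = 0.00296). Its sister gene Abcb1a went from 0.185 ± 0.122 to 2.23 ± 1.51 CPM (3.56 ± 0.71, edgeR adjusted p = 0.00889), with a log2 fold change of 2.91 without Sox10ko replicate 3 and 4.17 without control replicate 3.

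**Figure D4:**
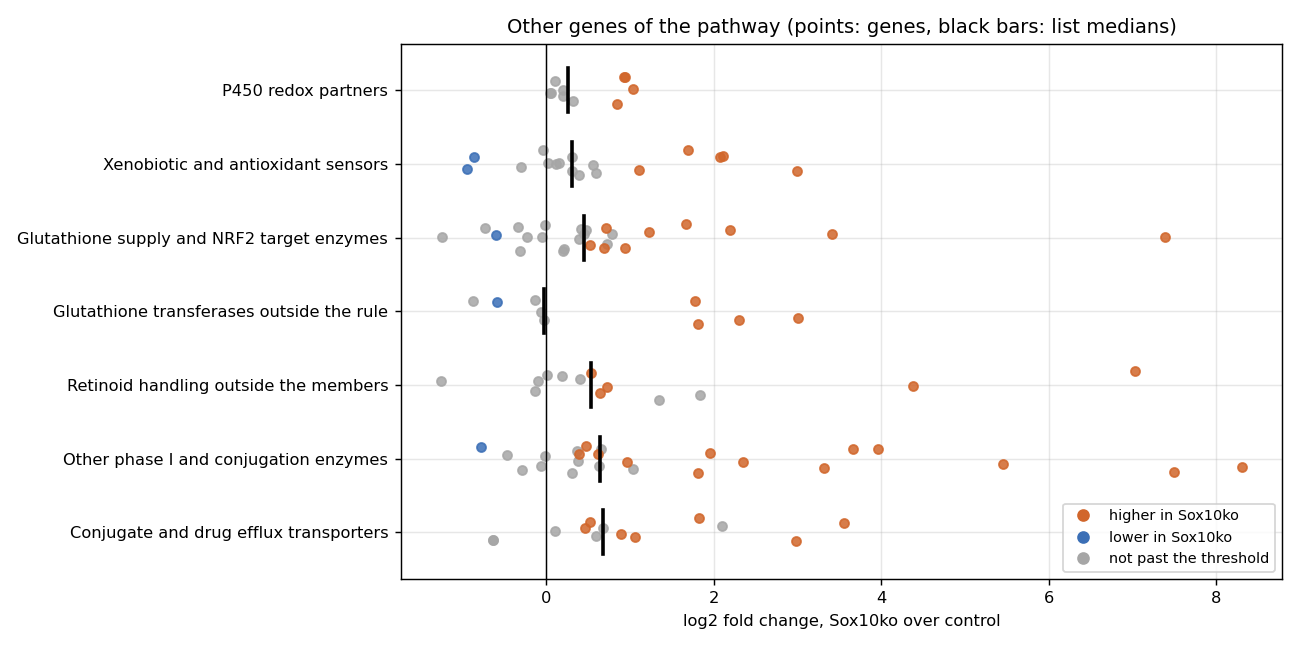
Log2 fold change of Sox10ko over control for each tested gene of the 7 lists of companion genes, with a black bar at each list's median. Orange points were higher, blue points lower and grey points did not pass. The medians run from -0.03 for the other glutathione transferases to 0.68 for the conjugate and drug transporters (labelled efflux transporters), beside 0.02 for all tested genes.

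The Sox10ko libraries differed among themselves over these genes. Of the 29 higher members, Sox10ko replicate 2 was the lowest of the 3 in 15 (51.7%), beside 33.6% of all 2664 higher genes. Replicate 3 was the highest in 13 (44.8%), beside 32.2% of all higher genes. Within Sox10ko the highest library exceeded the lowest 15.5-fold in Aldh3a1, 11.0-fold in Gsta2 and 8.39-fold in Gsta1. It did so 1.02-fold in Aldh4a1 and 1.20-fold in Cyp26b1 and Gsta3. Replicate 2 also had the lowest Nqo1 level, and the part of this spread in the results above was not tested.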

How the data were processed

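The deposited data are 1 table of read counts per library, by Ensembl gene ID, for 3 control and 3 Sox10ko cultures. Groups and replicate numbers came from the sample titles. Per the labels' protocols, a column kit yielded total RNA and a stranded mRNA kit the libraries. The tools named are STAR 2.6.0c, DESeq2 and HTSeq, with the build mm10 (GRCm38), per the submitters' processing notes. What each did, with which annotation and strand setting, is not given in the sources used here. Deposited counts are whole numbers with a different total in each library and are not corrected for gene length, so values per kb were computed from the exon length of GENCODE M21.

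Symbols, biotypes and coordinates came from GENCODE M21 on GRCm38 and matched 54042 of 54109 IDs. Genes were kept by filterByExpr (minimum count 10), scaled by TMM and tested in 1 fit over all 6 libraries with edgeR 4.0.16 (R 4.3.3): quasi-likelihood F test, two-sided, no covariate, Benjamini-Hochberg adjustment over 15427 genes, threshold 0.05. An unadjusted p under 0.05 was reached by 6684 genes. The SE was taken from the F statistic. Nothing in the labels says that replicates came from separate clones, so p-values measure the spread between these cultures. Counting error is all that the intervals and floors cover. Replicates differed by more than sampling noise in every pair (chi-square per degree of freedom of at least 24.7).

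The members, the lists and the tests were chosen with earlier results of these data known, so no list is independent evidence of its direction. Members were named where they passed the threshold (at most 12 P450 genes, each averaging 1 CPM or more), where they were among the 4 highest per length in their superfamily, or for a textbook role. From each list, at most 3 genes were named per direction, by lowest adjusted p. Other genes (for example Cyp3a16, Cyp2j8, Cyp2j12, Cyp2d22, Cyp4f14, Cyp2c23, Cyp4b1, Cyp11b1, Gstt2, Gm3776, Por and Gclc) were named after their values were seen. Promoter windows came from RefSeq (GRCm38.p6). The planned comparison of protein sequences was replaced by coding sequences of the GENCODE transcripts, aligned with Biopython 1.88, and at least 90% identity marked a gene as uncertain. Shared sequence was counted in 50-base stretches. Alternatives were DESeq2 1.42.0, limma-voom (limma 3.58.1), library size alone or DESeq2 size factors in place of TMM, a mean of 5 CPM or more or no filter at all, a replicate block, and leaving out each library in turn.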

Additional observations from a re-analysis of the deposited data

How the results depend on the processing

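The direction of every called member was kept under every alternative that tested it. Of the 38 called members, 20 stayed past the threshold under all of them and 18 lost the call under at least 1. With all 6 libraries, 38 kept the call with DESeq2, 38 with library size alone, 37 with DESeq2 size factors, 37 without a low-count filter and 34 with limma-voom. A filter on a mean of at least 5 CPM tested only 21 of the 38, and all 21 passed; it left 3 P450 genes higher and 4 lower, 0 aldehyde dehydrogenase genes lower and 5 glutathione transferase genes higher, because fewer genes were tested. Over all genes the count was 4939, 5821 with DESeq2 and 3386 under that filter.

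Leaving out each library in turn gave 2869 to 4681 genes called, the lowest without control replicate 3. The counts ran from 6 to 11 for P450 genes higher, 5 to 7 for P450 genes lower, 4 to 9 and 0 to 1 for aldehyde dehydrogenase genes higher and lower, 7 to 12 and 0 to 1 for glutathione transferase genes higher and lower, and 34 to 51 and 4 to 6 for the companion genes higher and lower. Fewer libraries enter each of those fits. Without control replicate 1, 2 or 3, 26, 28 and 23 of the 38 members were kept.

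Replicate numbers are shared by the groups in the labels, but same-numbered libraries did not deviate together (correlations of -0.224, -0.130 and 0.0374 over 10237 genes), so they were not treated as pairs. With the replicate block, 3537 genes were called, 31 of the 38 members were kept and 0 aldehyde dehydrogenase genes were lower. The members lost there were Aldh1a3, Aldh3b1, Aldh7a1, Cyp2j8, Cyp4f16, Gsta1 and Gsta2. Cyp4f16 was also the member lost with no low-count filter.

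Among the 914 values of 72 named genes under the alternatives, 66 were no longer past the threshold, 4 were newly past it and 0 were reversed. Depth limits the members with under 10 reads in a group, such as Cyp1b1, Cyp4f14, Cyp2c23, Gstt1, Cyp2j12, Cyp2j8 and Cyp2d22. The size of the change in these members is loosely set. No library of the group with few reads reached the cutoff of the low-count filter in them. They were tested because the other group was high, so their kept direction is no separate support.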
